A study of Homo sapiens with 9 samples.

Results

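Collagens are hydroxylated on proline and lysine in the endoplasmic reticulum before their chains fold, and the hydroxylated lysines later carry sugars and crosslinks outside the cell. The 10 genes described here act at these steps or in the basement membrane that keratinocytes rest on. PXDN encodes peroxidasin, the peroxidase that joins collagen IV molecules by sulfilimine bonds, and NID1 and NID2 encode the nidogens, which bridge laminin and collagen IV. P3H1, P3H2 and P3H3 encode members of the prolyl 3-hydroxylase family, P4HA1 and P4HA2 the catalytic subunits of the collagen prolyl 4-hydroxylases, and PLOD1 and PLOD2 the lysyl hydroxylases of the collagen helix and of its telopeptides. The genes were chosen by name and function out of 60671 genes in the count files, with the read counts of all groups known, and some of them have almost no reads in an edited group. Their own values are therefore given as a description, without a test.

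The RNA came from N/TERT cells, a telomerase-immortalised line of human epidermal keratinocytes, in 3 groups of 3 libraries each, all without treatment. The KO libraries are from cells in which SGPL1 was knocked out by CRISPR, the OE libraries from cells that overexpress SGPL1, and the control libraries from cells labelled WT. The product of SGPL1 is the lyase that irreversibly cleaves sphingosine-1-phosphate. The study's design text speaks of biological replicates, and the labels give neither the number of clones nor the promoter of the overexpressed gene, so a difference between groups and a difference between clones cannot be told apart.

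Libraries held 6317564 to 9410555 counted reads in KO, 8773822 to 13330479 in OE and 8730711 to 9251703 in control cells. In these, 3 reads correspond to 0.225 to 0.475 per 1000000 counted reads before any scaling. Levels are given as CPM, which are reads per 1000000 counted reads, scaled by the TMM method. SGPL1 itself averaged 59.6 ± 1.75 CPM in KO, 1055 ± 110.1 CPM in OE and 92.5 ± 7.55 CPM in control libraries (SD, n = 3 each). Its log2 fold change was −0.64 ± 0.09 (SE) in KO against control, with an adjusted p of 5.14e-06 by edgeR's quasi-likelihood test, and 3.51 ± 0.09 in OE against control, with an adjusted p of 4.90e-18. The KO value was −0.50 after the length and GC correction described below. The KO libraries thus still held SGPL1 reads, and counts per gene do not show an edit within a transcript. All 10 keratinocyte markers had reads in every group, and their summed level was 16714 to 18435 CPM in KO, 25433 to 27018 CPM in OE and 25401 to 25664 CPM in control libraries. Most of the lower KO sum was from KRT5, at a mean of 5850 CPM in KO and 11016 CPM in control libraries, and KRT14, at 2929 CPM in KO and 5453 CPM in control libraries, while the means of KRT15, TP63 and PERP were higher in KO than in control. KRT15 averaged 1406 CPM in OE and 2785 CPM in control libraries. The 10 fibroblast markers, genes of the cells that make most skin collagen, summed to 10.5 to 19.0 CPM in KO, 31.4 to 36.2 CPM in OE and 26.7 to 34.7 CPM in control libraries, mostly from COL1A1 and FBN1, while LUM, COL3A1 and PRRX1 had 0 reads in every library. Of the 10, 3 had 0 reads in KO, 4 in OE and 6 in control libraries. The 7 melanocyte markers summed to 69.2 to 76.5 CPM in KO, 60.0 to 71.4 CPM in OE and 89.7 to 101.2 CPM in control libraries, nearly all from MITF, with TYR, DCT and SOX10 at 0 reads in every library. The endothelial and immune lists summed to at most 7.78 CPM in any library, the immune list almost entirely from CD14, and PECAM1, PTPRC and CD3E had 0 reads throughout. The part of the marker differences in the results below was not tested. In bulk RNA, fewer cells of a type and less RNA per cell cannot be told apart.

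Fold changes in KO libraries followed the length of the transcript. Tested genes were split into 10 bins by exon length. The median log2 fold change in KO against control was 0.52 in the bin of the shortest genes (typical exon length 1178 bases) and −0.45 in the bin of the longest (13563 bases), and the same bins were at −0.03 and −0.06 in OE against control. Each KO fold change fitted with all libraries, for the 10 genes and their partner genes, is therefore given beside a value corrected for exon length and GC content. For the correction, each library's trend was entered in the fit. Ratios of summed reads and the bounds from a floor are not corrected. The KO and OE comparisons use the same control libraries, so they are not independent of each other.

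The upstream sequences of 5 of the genes are printed because the groups were furthest apart in these genes or, for PLOD2, because both edited groups lay above the control. They are from RefSeq on GRCh38.p14, run 5′ to 3′ on the strand of the gene, and cover the part of the 250 bases before the RefSeq start that holds no annotated exon of the count files. No methylation or factor binding was measured in these cells. The first 4 have each CpG in capitals, and they lie at chr2:1744516-1744765, minus strand (PXDN), chr1:236065110-236065340, minus strand (NID1), chr14:52069229-52069309, minus strand (NID2), and chr12:6828157-6828406, plus strand (P3H3).
PXDN: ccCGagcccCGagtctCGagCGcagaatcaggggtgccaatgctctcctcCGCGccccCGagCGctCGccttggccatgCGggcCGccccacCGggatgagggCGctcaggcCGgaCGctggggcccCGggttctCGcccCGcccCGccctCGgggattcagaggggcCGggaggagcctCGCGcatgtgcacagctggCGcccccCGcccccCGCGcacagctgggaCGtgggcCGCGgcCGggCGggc
NID1: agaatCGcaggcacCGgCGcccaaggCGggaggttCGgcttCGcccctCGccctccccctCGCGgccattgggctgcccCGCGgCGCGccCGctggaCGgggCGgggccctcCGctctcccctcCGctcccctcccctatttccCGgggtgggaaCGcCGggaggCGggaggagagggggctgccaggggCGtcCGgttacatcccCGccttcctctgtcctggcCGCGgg
NID2: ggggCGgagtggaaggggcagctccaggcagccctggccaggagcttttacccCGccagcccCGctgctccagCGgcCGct
P3H3: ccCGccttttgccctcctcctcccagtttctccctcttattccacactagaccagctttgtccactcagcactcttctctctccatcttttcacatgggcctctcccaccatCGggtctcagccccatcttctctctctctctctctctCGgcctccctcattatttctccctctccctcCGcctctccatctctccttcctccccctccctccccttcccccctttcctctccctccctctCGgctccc
The PLOD2 sequence lies at chr3:146161185-146161434, minus strand, inside the gene as the count files delimit it but outside its exons. The PXDN sequence likewise lies inside its gene as delimited there, but outside the exons. In the PLOD2 sequence, capitals mark the core of the hypoxia response element, ACGTG or GCGTG on either strand.
PLOD2: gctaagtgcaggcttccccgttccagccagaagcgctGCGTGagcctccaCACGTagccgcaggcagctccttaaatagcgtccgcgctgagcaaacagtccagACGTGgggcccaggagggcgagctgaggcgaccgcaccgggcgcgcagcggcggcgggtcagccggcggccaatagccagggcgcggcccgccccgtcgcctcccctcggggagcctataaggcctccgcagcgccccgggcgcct

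Among the full 250-base windows, that of PXDN held 32 CpG, more than 90.7% of the 27305 RefSeq promoters had, and that of NID1 held 30. The NID2 window held 18 and the P3H3 window 5, against a median of 11 over all promoters. The 3 genes with almost no reads in an edited group thus covered the range from CpG-poor to CpG-rich. The hypoxia core was found at least once in the windows of 6 of the 10 genes, and in 43.1% of all promoters. PLOD2 had 3 matches, starting 213, 200 and 146 bases before the start, PLOD1 had 2, and P4HA1 had 1, starting 86 bases before it. Of all promoters, 19.5% had at least 2 matches.

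PXDN was the gene with no reads in either edited line. Its 11266 bases of exon at chr2:1631887-1744852 on the minus strand collected 0 reads in each of the 3 KO and each of the 3 OE libraries, against 229, 251 and 250 reads in the control libraries. On the CPM scale this was 0 in every KO and OE library and 25.0, 26.4 and 28.1 CPM in control libraries. Taking 3 reads over the group as the floor, PXDN was at least 204-fold lower in KO and at least 288-fold lower in OE than in control. No exon of another gene overlapped those of PXDN. Among the 11008 genes with at least 100 reads over the control libraries, PXDN alone had at most 3 reads in both the KO and the OE group. With at least 50 control reads required there were 2 such genes, and with at least 200 again 1.

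In the KO group 6 of those 11008 genes had at most 3 reads, and in the OE group 1 had, which was PXDN. The 6, named after their values were seen, were PXDN, NID2, TBL1X, ARMCX1, TSKS and ENSG00000283167. NID2 and PXDN thus shared this list with 4 other genes. ARMCX1 had 0 reads in all KO libraries, 349 in the OE libraries and 129 in the control libraries.

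The nidogens stood at opposite ends in the KO cells. NID1 (chr1:235975830-236065109, minus strand) was at 78.2, 85.7 and 76.1 CPM in KO, 26.8, 27.7 and 22.8 CPM in OE, and 22.9, 23.1 and 19.3 CPM in control libraries. Every KO library lay above every OE and control library, while OE and control libraries overlapped. The log2 fold change of NID1 was 1.88 ± 0.12 (SE) in KO against control, 2.02 after the length and GC correction. It was 1.64 ± 0.11 in KO against OE, 1.78 after the correction, and 0.24 ± 0.12 in OE against control.

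NID2 (chr14:52004803-52069228, minus strand) had 0, 2 and 0 reads in KO libraries, 64, 82 and 87 reads in OE libraries and 58, 75 and 67 reads in control libraries. These were 0, 0.224 and 0 CPM in KO, 7.08, 8.27 and 6.35 CPM in OE and 6.33, 7.90 and 7.53 CPM in control. KO libraries lay below all others, and OE and control libraries overlapped. Summed over the group, NID2 was 83.9 times lower in KO than in control, with a counting interval from 22.9 to 698, and 82.5 times lower in KO than in OE, with an interval from 22.6 to 685. Both KO reads came from KO library 2, and without that library NID2 was at least 34.4-fold lower in KO than in control and at least 33.8-fold lower than in OE. The log2 fold change in OE against control was −0.01 ± 0.27. RTRAF, which runs the other way, shares 30.0% of the exon bases of NID2, and the counting command names no strand, so reads from this stretch cannot be assigned between the genes by strand.

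Per kilobase of exon, the nidogens together were at 13.8 ± 0.885 CPM in KO, 5.57 ± 0.586 CPM in OE and 4.88 ± 0.354 CPM in control libraries (SD, n = 3 each). NID2 made up 0.0791% ± 0.137 of this nidogen level in KO, 20.3% ± 0.978 in OE and 23.3% ± 3.06 in control libraries. The summed nidogen transcript level was therefore higher in the KO libraries, and nearly all of it was NID1. These levels divide by all exon bases, including the 30.0% of NID2 that RTRAF shares. The effect of that overlap on the shares was not tested.

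**Figure D1:**
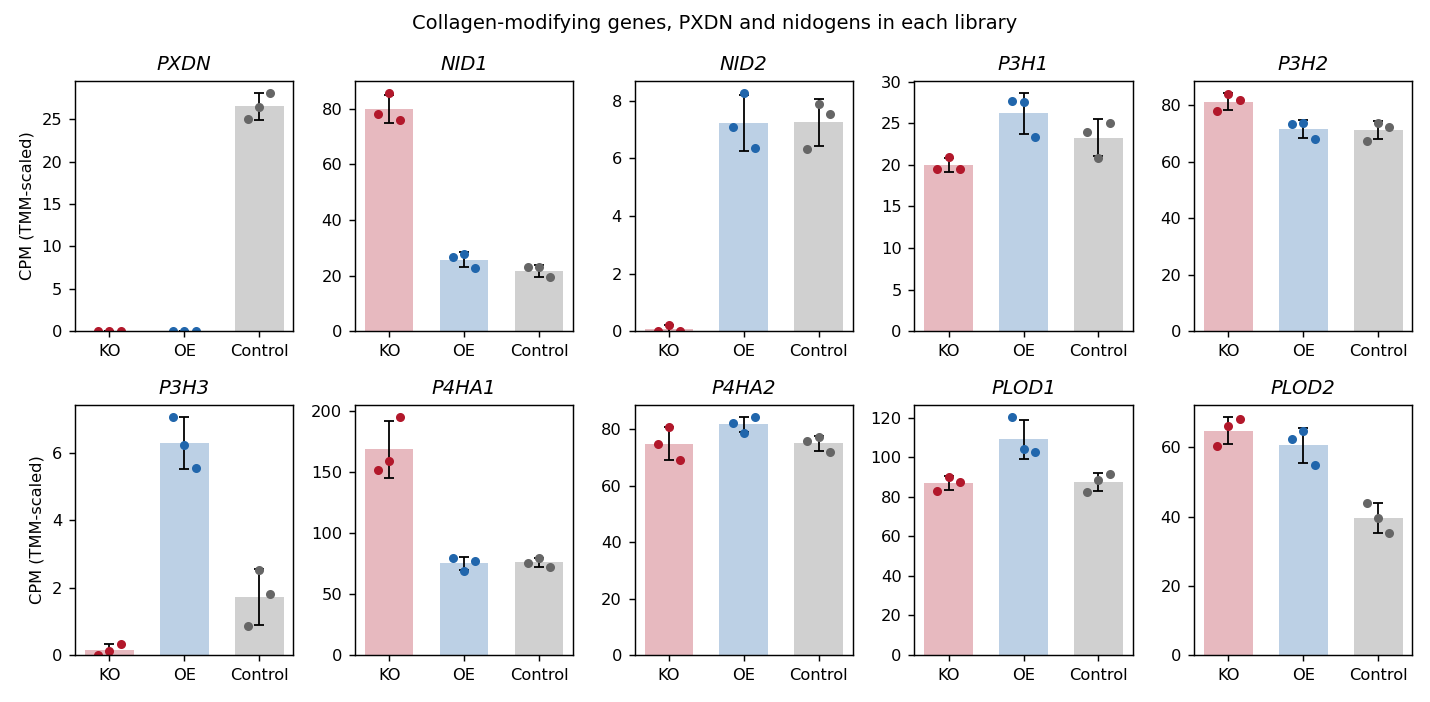
Level of each of the 10 genes in CPM (linear axes from 0, a separate scale for each gene) in KO, OE and control cells; points are the 3 libraries of a group, bars the mean and error bars the SD. PXDN is at 0 in all KO and OE libraries and NID2 near 0 in KO libraries, while NID1 and P4HA1 lie above every OE and control library in KO cells and PLOD2 lies above the control libraries in both edited groups.

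Among the prolyl 3-hydroxylase family, P3H3 had the widest spread between groups and P3H2 the highest level. P3H3, whose product is known in mice to work in a lysyl hydroxylase complex with PLOD1 and P3H4, lies at chr12:6828407-6839847 on the plus strand. It had 0, 0.112 and 0.338 CPM in KO libraries, 7.08, 6.25 and 5.54 CPM in OE libraries and 0.873, 2.53 and 1.80 CPM in control libraries. The groups did not overlap: KO lay lowest, control between, and OE highest. The sums were 3 reads in KO, 202 in OE and 48 in control libraries. P3H3 was 13.4 times lower in KO than in control, with a counting interval from 4.33 to 67.4, and 47.7 times lower in KO than in OE, with an interval from 16.1 to 233. KO library 3 held 2 of the 3 KO reads, and without it P3H3 was 30.0 times lower in KO than in control, with an interval from 5.13 to 1209, and 106 times lower than in OE, with an interval from 18.9 to 4225. Its log2 fold change in OE against control was 1.84 ± 0.40, between 1.53 and 2.23 under the alternatives tried.

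P3H1 (chr1:42746335-42767084, minus strand), the partner of CRTAP and PPIB in the complex that modifies fibrillar collagens, varied little. It was at 19.5, 21.0 and 19.4 CPM in KO, 27.7, 27.5 and 23.3 CPM in OE and 23.9, 20.9 and 25.1 CPM in control libraries. Control libraries overlapped both edited groups, and KO libraries lay below OE libraries. Its log2 fold change was −0.22 ± 0.14 in KO against control, but 0.09 after the correction, and −0.38 ± 0.14 in KO against OE, but −0.08 after it. It was 0.17 ± 0.13 in OE against control.

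P3H2 (chr3:189956728-190122437, minus strand), which modifies collagen IV, was at 78.0, 84.1 and 81.8 CPM in KO, 73.4, 73.8 and 68.0 CPM in OE and 67.6, 73.7 and 72.5 CPM in control libraries. The KO libraries lay narrowly above all others. P3H2 had a log2 fold change of 0.19 ± 0.09 in KO against control, 0.18 after the correction, and 0.01 ± 0.09 in OE against control. P3H2 made up 83.0% ± 0.236 of the family's level per kilobase in KO, 71.1% ± 1.18 in OE and 77.0% ± 1.28 in control libraries. P3H3 made up 0.184% ± 0.213 in KO, 7.54% ± 0.568 in OE and 2.25% ± 1.031 in control libraries.

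The catalytic subunits of prolyl 4-hydroxylase, which stabilises the collagen triple helix, differed in their KO change, but by less after the length and GC correction. P4HA1 (chr10:73007217-73096974, minus strand) was at 152, 159 and 196 CPM in KO, 79.6, 68.7 and 76.9 CPM in OE and 75.5, 80.0 and 72.2 CPM in control libraries. All KO libraries lay above the others, KO library 3 highest. For P4HA1 the log2 fold change was 1.15 ± 0.10 in KO against control, 0.74 after the correction and 1.04 without KO library 3. It was 1.17 ± 0.10 in KO against OE, 0.79 after the correction, and −0.02 ± 0.10 in OE against control. P4HA1 has 3093 bases of exon, and 25.2% of the tested genes are shorter.

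P4HA2 (chr5:132191838-132295315, minus strand) was at 74.8, 80.7 and 69.0 CPM in KO, 82.2, 78.8 and 84.2 CPM in OE and 75.9, 77.3 and 72.1 CPM in control libraries. KO and control libraries overlapped, and OE libraries lay narrowly above the control libraries. The log2 fold change was −0.00 ± 0.09 in KO against control, but 0.33 after the correction, and 0.12 ± 0.09 in OE against control. In the sum of both subunits per kilobase, P4HA1 accounted for 86.0% ± 2.33 in KO, 71.6% ± 1.06 in OE and 73.5% ± 0.395 in control libraries. That sum was 63.4 ± 7.05 CPM per kilobase in KO, 33.9 ± 2.10 in OE and 33.4 ± 1.55 in control libraries. These shares and sums, like those of the other families, are not corrected for the length trend in KO. P4HA1 has 3093 and P4HA2 8502 bases of exon.

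The lysyl hydroxylases included the gene that was higher than control in both edited lines. PLOD2 (chr3:146069440-146163653, minus strand), which hydroxylates telopeptide lysines, was at 60.4, 66.0 and 68.1 CPM in KO, 62.4, 64.6 and 54.9 CPM in OE and 44.0, 39.7 and 35.2 CPM in control libraries. KO and OE libraries overlapped each other, and all of them lay above the control libraries. The log2 fold change of PLOD2 was 0.71 ± 0.11 in KO against control, 0.60 after the correction, and 0.61 ± 0.11 in OE against control. It was 0.10 ± 0.11 in KO against OE, but −0.00 after the correction.

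PLOD1 (chr1:11934205-11975538, plus strand), which acts on lysines of the helix, was at 83.1, 90.3 and 87.8 CPM in KO, 121, 104 and 103 CPM in OE and 82.5, 88.4 and 91.6 CPM in control libraries. OE libraries lay above all others, and KO and control libraries overlapped. PLOD1 had a log2 fold change of −0.01 ± 0.09 in KO against control, but 0.24 after the correction, 0.32 ± 0.09 in OE against control, and −0.33 ± 0.09 in KO against OE, but −0.06 after it. With PLOD3 counted in, PLOD2 made up 20.8% ± 0.104 of the lysyl hydroxylase level per kilobase in KO, 14.0% ± 1.29 in OE and 12.0% ± 1.47 in control libraries.

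**Figure D2:**
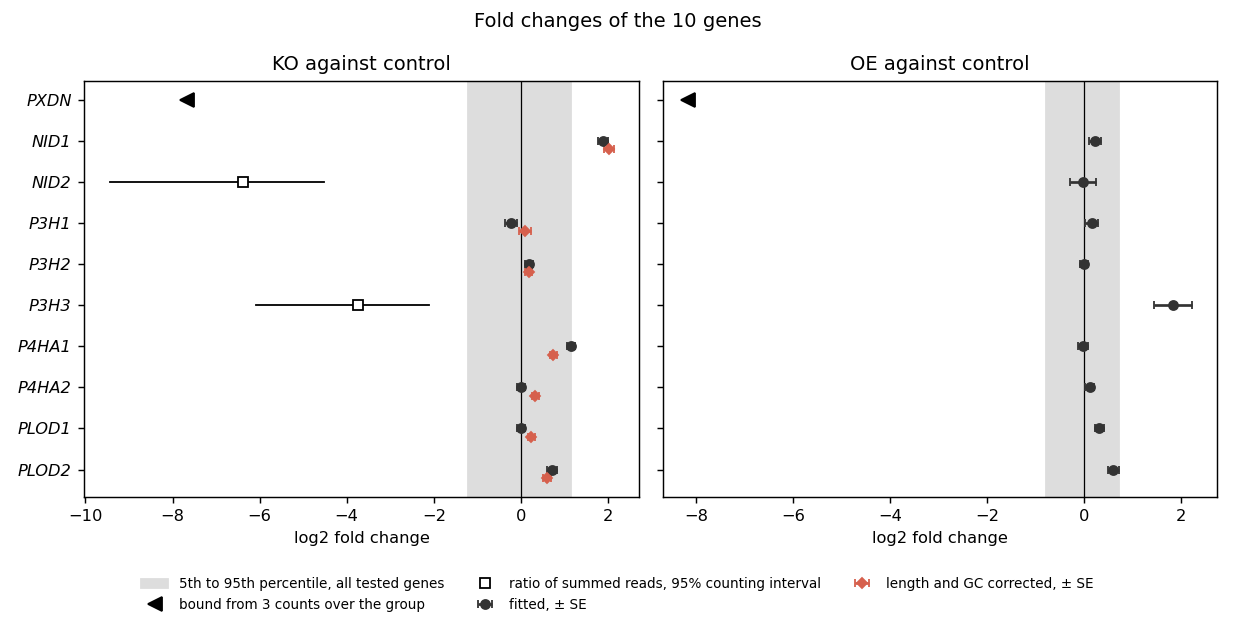
Log2 fold change of the 10 genes in KO against control (left) and OE against control (right), fitted with SE (circles), corrected for length and GC content (diamonds, KO only), from summed reads with a counting interval (squares, NID2 and P3H3 in KO) or as a bound from 3 reads over the group (triangles, PXDN); the grey band spans the 5th to 95th percentile of all 13390 tested genes. NID1 lies right of the band in KO at 1.88, PXDN and, in KO, NID2 and P3H3 lie far left of it, and P3H3 lies right of it in OE at 1.84.

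In KO against control, 7 of the 10 genes did not overlap between groups, 4 above and 3 below, and over all tested genes 59.5% did not overlap, 30.0% above and 29.4% below. In OE against control, 5 did not overlap, 4 above and 1 below, against 34.8% of all tested genes, 17.2% above and 17.6% below. In KO against OE, 7 did not overlap, 3 above and 4 below, against 61.6% of all tested genes, 30.5% above and 31.1% below. The rule that chose the genes used these counts, so the shares are given for scale. The median log2 fold change of the 10 genes was −0.00 in KO against control and 0.14 in OE against control, and the medians of all tested genes were −0.00 and −0.01. All 10 passed the filter on low counts, but PXDN passed it through the control libraries alone, NID2 through OE and control libraries, and P3H3 through 3 OE and 2 control libraries. The other 7 exceeded the cutoff of 1.11 CPM, taken before TMM scaling, in every library.

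Levels per kilobase of exon put P4HA1 first in every group, at 54.6 ± 7.58 CPM per kilobase in KO, 24.3 ± 1.83 in OE and 24.5 ± 1.25 in control libraries. In control libraries PLOD1 followed at 16.4 ± 0.864, P3H2 at 12.8 ± 0.586, P4HA2 at 8.83 ± 0.314 and PLOD2 at 5.17 ± 0.575 CPM per kilobase. NID1 at 3.75 ± 0.365 and P3H1 at 3.44 ± 0.321 overlapped in the control libraries, and below them came PXDN at 2.35 ± 0.138, NID2 at 1.13 ± 0.128 and P3H3 at 0.377 ± 0.180. The most abundant of these genes in control cells lay above 87.3% of tested genes in level per kilobase, and P3H3 above 7.42%. In KO libraries NID1 moved up to 13.8 ± 0.865 CPM per kilobase and overlapped P3H2 at 14.6 ± 0.557. P4HA2 at 8.80 ± 0.690 and PLOD2 at 8.46 ± 0.525 also overlapped in KO libraries. In OE libraries P4HA1 overlapped PLOD1 at 20.5 ± 1.86, NID1 at 4.44 ± 0.447 overlapped P3H1 at 3.87 ± 0.363, and P3H3 at 1.37 ± 0.168 overlapped NID2 at 1.13 ± 0.152.

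**Figure D3:**
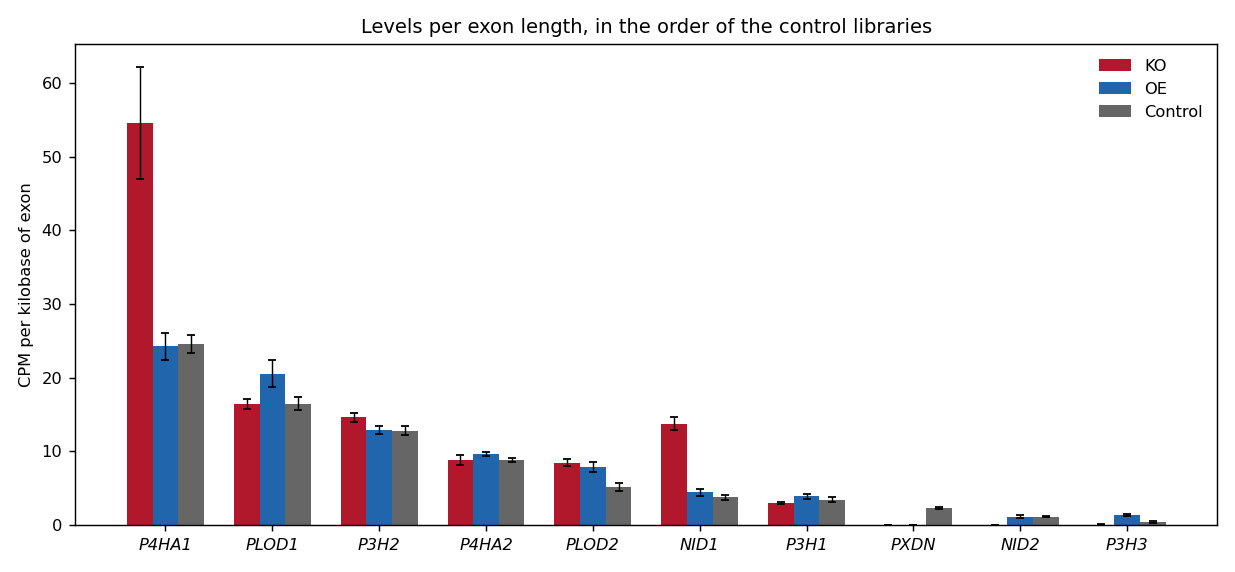
Mean level in CPM per kilobase of exon (linear axis from 0) with SD over the 3 libraries of KO, OE and control cells, ordered by the control level. P4HA1 is highest in each group and reaches 54.6 in KO cells, and NID1 stands at 13.8 in KO cells, 4.44 in OE cells and 3.75 in control cells.

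The other genes of collagen modification and of the basement membrane were described from 7 lists with 80 genes in all, of which 56 were tested. In KO against control 17 of the 56 rose and 22 fell at an adjusted p under 0.05 by edgeR. Of all 13390 tested genes 51.9% were called there, 26.0% higher and 25.9% lower. LOXL1 is counted among the falls in both KO comparisons, but it passed the filter on low counts only through OE and control libraries. Its call is not used as a result. After the length and GC correction, with 45.6% of all tested genes called, 23 rose and 16 fell, so the balance of directions depended on that correction. The OE cells had 10 rises and 9 falls against control, where 18.6% of all tested genes were called, 9.28% higher and 9.34% lower, and without control library 3 the total was 12. In KO against OE, where 57.6% of all tested genes were called, 28.6% higher and 29.0% lower, 15 rose and 21 fell. After the correction, with 53.7% of all tested genes called, 22 rose and 16 fell.

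Of the hydroxylase partners and collagen glycosyltransferases, 2 of 6 tested genes rose and 1 fell in KO against control. CRTAP, the scaffold of the P3H1 complex, was at 379, 379 and 357 CPM in KO and 258, 246 and 244 CPM in control libraries. Its log2 fold change was 0.58 ± 0.08, 0.78 after the correction, with an edgeR adjusted p of 1.08e-06. PPIB, the cyclophilin of the same complex, rose by 0.73 ± 0.11 on the log2 scale, 0.40 after the correction, with an edgeR adjusted p of 5.65e-06. Both partners of P3H1 thus rose in KO cells, where P3H1 itself overlapped the control. PLOD3, the lysyl hydroxylase that also transfers glucose, fell by 0.44 on the log2 scale in KO with an edgeR adjusted p of 1.64e-04, but after the correction its change was −0.13 with an adjusted p of 0.239.

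Against control, 3 of these 6 genes rose in OE cells and the others did not pass. PLOD3 was at 164, 150 and 163 CPM in OE and 120, 124 and 122 CPM in control libraries, a log2 fold change of 0.38 ± 0.08 with an edgeR adjusted p of 0.00215. COLGALT1, which adds galactose to hydroxylysine, rose by 0.42 ± 0.08 with an adjusted p of 4.02e-04 by edgeR. P3H4 rose by 0.55 ± 0.17 with an edgeR adjusted p of 0.0244, a call lost without control library 2, control library 3 or OE library 1. P3H4 and PLOD1 are the known partners of P3H3, and all 3 had OE libraries above the control libraries, as 17.2% of all tested genes had. The partners did not follow P3H3 in KO against control, where P3H3 was 13.4 times lower. PLOD1 was at −0.01 on the log2 scale, 0.24 after the correction. P3H4 averaged 11.4 CPM in KO and 11.8 CPM in control libraries.

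Among collagen folding and export genes, 2 of 6 rose and 2 fell in KO against control. SERPINH1, the collagen chaperone HSP47, rose by 0.32 ± 0.09 on the log2 scale in KO, 0.68 after the correction, with an edgeR adjusted p of 0.00355. MIA2, whose product helps to load large cargo at endoplasmic reticulum exit sites, rose by 0.83 ± 0.10, 0.98 after the correction, with an edgeR adjusted p of 4.24e-07. FKBP14, a prolyl isomerase of the endoplasmic reticulum, fell by 0.46, or −0.66 after the correction, with an edgeR adjusted p of 0.00440. SEC24D, a coat protein of export vesicles, fell by 0.37, or −0.16 after the correction, with an edgeR adjusted p of 0.00944, a call lost after the correction and without control library 3. In OE cells, 1 of the 6 rose and 1 fell: SERPINH1 rose by 0.26 ± 0.09 with an edgeR adjusted p of 0.0368 and FKBP14 fell by 0.36 with one of 0.0482. The OE call for SERPINH1 was lost without any 1 of control libraries 2 and 3 and OE libraries 1 and 3, and that for FKBP14 was lost without 8 of the 9 libraries.

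The tested lysyl oxidases, which crosslink collagen outside the cell, were LOXL2, which rose, and LOX, which fell in KO against control, and LOXL1, which passed the filter on low counts only through OE and control libraries. In OE against control the edgeR adjusted p was 0.228 for LOXL2, 0.802 for LOX and 0.975 for LOXL1. LOXL2 was at 17.0, 15.7 and 41.1 CPM in KO and 7.86, 9.06 and 12.0 CPM in control libraries. It rose by 1.32 ± 0.27, 1.66 after the correction, with an edgeR adjusted p of 2.34e-04, and by 0.76 without KO library 3. LOXL1 had 4, 0 and 4 reads in KO and 14, 20 and 25 reads in control libraries, or 0.386 ± 0.348 CPM and 2.15 ± 0.642 CPM (SD, n = 3 each). Every KO library of LOXL1 lay below the filter cutoff and below every control library, so its difference is given without a test. LOX, at 2.35 ± 0.999 CPM in KO and 5.12 ± 1.15 CPM in control libraries, fell by 1.14, or −1.29 after the correction, with an edgeR adjusted p of 0.0103, and the call was lost without KO library 1 or control library 1. Of the 4 tested procollagen proteinases, 1 rose in KO, 2 rose after the correction, and 1 fell in OE cells. TLL1 rose by 0.86 ± 0.18 in KO, 0.94 after the correction, with an edgeR adjusted p of 3.69e-04, and BMP1 fell by 0.29 in OE with one of 0.00748. In KO against control BMP1 was at 0.06 ± 0.08, but rose by 0.51 after the correction, with an edgeR adjusted p of 6.54e-07.

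Among the genes whose products meet nidogens or collagen IV in the basement membrane, 3 of 10 rose and 6 fell in KO against control, and after the correction 4 rose and 4 fell. COL4A1 and COL4A2 encode the collagen IV chains that peroxidasin crosslinks. COL4A1 was at 29.5, 32.1 and 25.5 CPM in KO and 83.9, 95.9 and 95.4 CPM in control libraries, and fell by 1.65 on the log2 scale, 1.09 after the correction, with an edgeR adjusted p of 2.47e-10. COL4A2 was at 85.9, 90.7 and 85.1 CPM in KO and 218, 237 and 247 CPM in control libraries, and fell by 1.42, 0.67 after the correction, with an edgeR adjusted p of 6.06e-12. HSPG2, the heparan sulfate proteoglycan perlecan, fell by 1.35 in KO, 0.27 after the correction, with an edgeR adjusted p of 2.90e-09. SPARC, a collagen-binding matricellular protein, was at 239, 242 and 243 CPM in KO and 84.6, 85.0 and 93.0 CPM in control libraries. It rose by 1.46 ± 0.08, 1.48 after the correction, with an edgeR adjusted p of 1.95e-12. LAMC1, the laminin chain that nidogens bind, rose in KO by 0.41 ± 0.10, 0.67 after the correction, with an edgeR adjusted p of 0.00122. For AGRN, which encodes the proteoglycan agrin and was named after its values were seen, the direction in KO against control depended on the correction. Its log2 fold change was −0.67 with an edgeR adjusted p of 3.72e-06, and 0.27 after the correction with one of 0.00218.

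Of these 10 genes 1 rose and 3 fell in OE against control. COL4A2 rose by 0.42 ± 0.08 with an edgeR adjusted p of 4.07e-04, at 325, 325 and 291 CPM in OE and 218, 237 and 247 CPM in control libraries. LAMC1 fell by 0.45 with an edgeR adjusted p of 0.00207. HSPG2 fell by 0.38 with one of 0.0253, and COL4A5 by 0.30 with one of 0.0365. The calls for HSPG2 and COL4A5 were lost without control library 2, control library 3 or OE library 3, and that for COL4A5 also without OE library 1. In both edited lines PXDN was at 0, while COL4A2 fell in KO and rose in OE cells.

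Other collagen chains had 7 of 9 tested genes lower in KO against control, and the other 2 did not pass. After the correction 6 were lower and 3 did not pass. The list's median log2 fold change was −1.58, −1.12 after the correction, against −0.00 for all tested genes. The 9 include COL5A3, with 0, 4 and 2 reads in KO libraries. It passed the filter on low counts only through OE and control libraries. COL5A2, also among the 9, had 8, 18 and 4 reads in KO and 49, 58 and 28 reads in control libraries. The counts and the median of this list are therefore given as a description. COL7A1, the collagen of anchoring fibrils, was at 113, 147 and 121 CPM in KO and 609, 750 and 710 CPM in control libraries. It fell by 2.44 on the log2 scale, 1.58 after the correction, with an edgeR adjusted p of 1.20e-13. COL17A1, the transmembrane collagen of hemidesmosomes, fell by 0.86, 0.56 after the correction, with an edgeR adjusted p of 9.58e-09. COL16A1 fell by 1.78, 1.12 after the correction, with an edgeR adjusted p of 1.18e-09, and COL27A1 by 1.99, 1.21 after the correction, with one of 1.24e-07. OE cells had COL16A1 lower: it fell by 1.28 with an edgeR adjusted p of 4.68e-07 and COL12A1 rose by 0.76 ± 0.12 with one of 7.17e-05.

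P4HA1 and PLOD2 are known targets of hypoxia-inducible factor, and 18 genes of oxygen sensing and the hypoxia response were tested. In KO against control 8 rose and 4 fell, and after the correction 11 rose and 3 fell. The OE cells had 4 rises and 3 falls against control. ADM, the vasodilator peptide adrenomedullin, was at 101.3, 97.8 and 86.9 CPM in KO and 37.1, 37.7 and 42.7 CPM in control libraries. It rose by 1.29 ± 0.10, 1.14 after the correction, with an edgeR adjusted p of 6.18e-10. CA9, a carbonic anhydrase, was at 9.76, 7.06 and 29.8 CPM in KO and 3.38, 2.74 and 2.36 CPM in control libraries. It rose by 2.41 ± 0.41, 2.11 after the correction, with an edgeR adjusted p of 3.05e-05, and by 1.57 without KO library 3. NDRG1 rose by 1.00 ± 0.14 in KO, 1.59 after the correction, with an edgeR adjusted p of 2.39e-06, and by 0.73 without KO library 3. PFKFB4, a regulator of glycolysis, fell by 1.21, or −0.95 after the correction, with an edgeR adjusted p of 4.27e-05. KO library 3 was the highest KO library for P4HA1, PLOD2, LOXL2, CA9 and NDRG1, but the lowest for ADM and PFKFB4. It was also the library with the fewest reads. LOXL2, CA9 and NDRG1 still passed the test without it.

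In OE cells ADM moved the other way from NDRG1, CA12 and VEGFA. NDRG1 was at 112, 125 and 120 CPM in OE and 50.8, 53.0 and 60.1 CPM in control libraries, and rose by 1.12 ± 0.14 with an edgeR adjusted p of 2.57e-06. CA12 rose by 0.77 ± 0.15 and VEGFA, the angiogenic growth factor, by 0.66 ± 0.13, with edgeR adjusted p values of 6.70e-04 and 6.93e-04. ADM fell by 0.54 with one of 7.46e-04. P4HA1 overlapped the control in these libraries while PLOD2 lay above it.

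**Figure D4:**
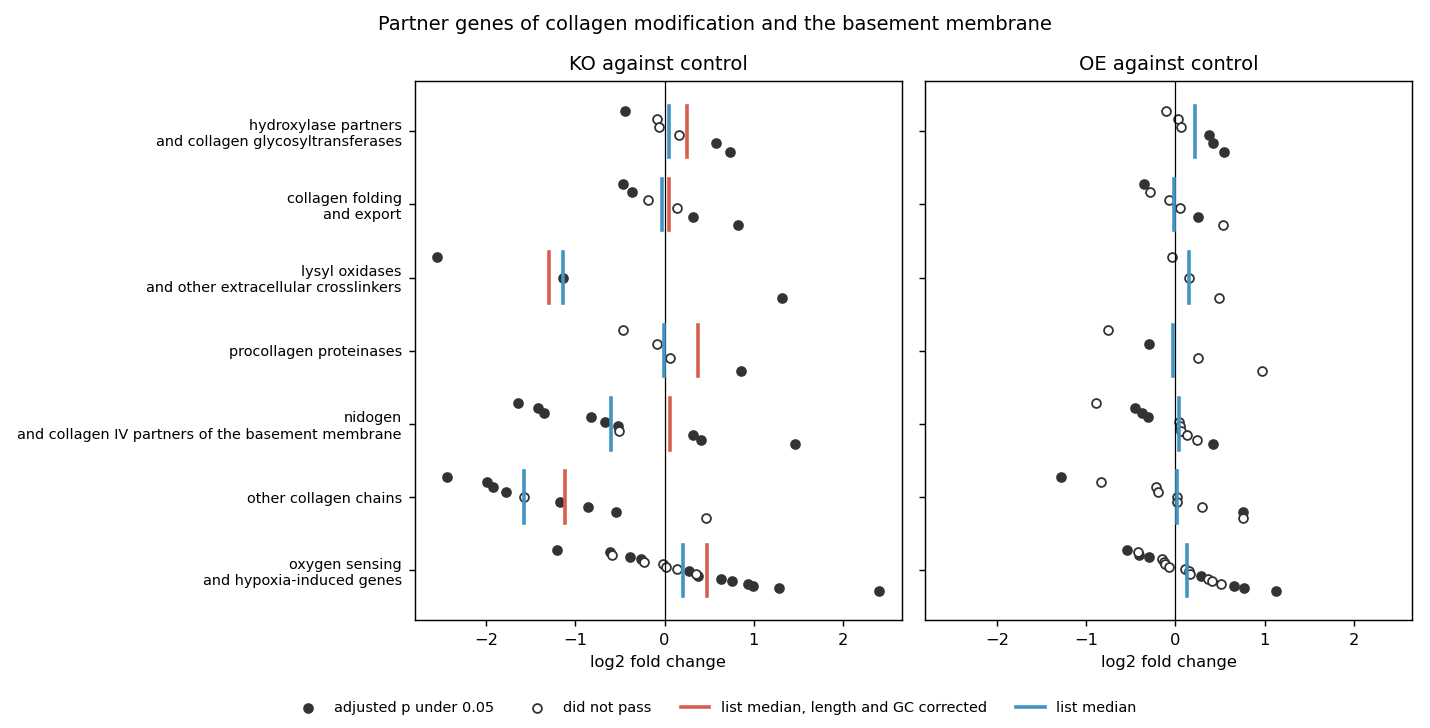
Log2 fold change of the 56 tested partner genes by list in KO against control (left) and OE against control (right); each point is a gene, filled where the edgeR adjusted p was under 0.05, and vertical bars give the list median without (blue) and with (orange, KO only) the length and GC correction. Other collagen chains have a median of −1.58 in KO cells, and in the oxygen list 8 genes rose and 4 fell in KO cells.

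The genes with the pattern most like PXDN over the 9 libraries, by Pearson correlation of log2 CPM, were ZNF674 (0.979), LYNX1 (0.971), TP53I11 (0.968), VAT1 (0.967) and SYT8 (0.958). The libraries form 3 groups, so these values rest on differences between groups. TP53I11 was at 4.77 ± 0.669 CPM in KO, 3.36 ± 0.706 CPM in OE and 17.9 ± 0.483 CPM in control libraries. LYNX1 had 0 reads in KO, 2 in OE and 74 in control libraries. For NID2 the closest genes were GOLGA4 (0.996), SRRM1 (0.995), MPRIP (0.994), COL7A1 (0.994) and AFDN (0.993). All 5 had KO libraries below the OE and control libraries, which follows from their choice by likeness to NID2. The correlations used values without the length and GC correction. COL7A1 belongs to the collagen list above.

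The nearest tested genes on either side of each of the 10 were examined for shared behaviour along the chromosome. Of these 20 neighbours 6 rose and 3 fell in KO against control, and 3 rose and 17 did not pass in OE against control. Over all tested genes 51.9% were called in KO and 18.6% in OE, so the neighbours' shares were near those of all genes. Beside NID1, GPR137B rose by 1.55 ± 0.17 on the log2 scale in KO, 1.23 after the length and GC correction, with an edgeR adjusted p of 7.63e-08. LYST fell by 0.88, or −0.46 after the correction, with one of 7.23e-06. The 33 other tested genes within 5 Mb of NID1 had a median log2 fold change of 0.69 in KO against control, with 21 higher and 4 lower by the edgeR test. In OE against control their median was 0.18, with 3 higher. Over all tested genes the medians were −0.00 in KO and −0.01 in OE. In KO 26.0% were higher and 25.9% lower, and in OE 9.28% were higher. The values for the genes within 5 Mb are not corrected for the length trend in KO. Beside NID2, RTRAF rose by 0.61 ± 0.10 in KO with an edgeR adjusted p of 1.78e-05, so the gene that overlaps NID2 was higher where NID2 had 2 reads. TXNDC16, on the other side, was at 0.18 ± 0.22 and did not pass.

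Beside PXDN, TMEM18 rose by 0.76 ± 0.21 in KO with an edgeR adjusted p of 0.00388 and was at 0.13 ± 0.21 in OE, while EIPR1 passed in neither comparison. The 11 other tested genes within 5 Mb of PXDN had a median log2 fold change of 0.35 in KO and −0.05 in OE, and the lowest single values were −0.31 and −0.33. The absence of reads was thus not shared by these tested genes. The starts of TMEM18 and EIPR1 lay at −0.97 Mb and 1.56 Mb from that of PXDN, and TMEM18 was the only tested gene within 1 Mb. The stretch between TMEM18 and EIPR1 held no tested gene other than PXDN, so a loss confined to that stretch was not tested. Beside P3H3, PTMS rose by 0.50 ± 0.11 and CDCA3 by 0.82 ± 0.15 in OE, with edgeR adjusted p values of 0.00184 and 4.10e-04, and neither passed in KO. Beside P3H1, YBX1 rose by 0.37 ± 0.07 in KO with an edgeR adjusted p of 1.56e-04, and C1orf50 did not pass. Beside P3H2, TP63 rose by 0.29 ± 0.09 and CLDN1 by 0.58 ± 0.14 in KO, with edgeR adjusted p values of 0.00992 and 0.00104.

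Near P4HA1, NPM1P24 and NUDT13 passed in neither comparison, and the 76 other tested genes within 5 Mb, which include SGPL1, had a median of 0.03 in KO. Beside P4HA2, PDLIM4 fell by 0.74 in KO with an edgeR adjusted p of 3.04e-04 and rose by 0.58 ± 0.14 in OE with one of 0.00428, and FNIP1 passed in neither. Beside PLOD1, MFN2 fell by 0.47 in KO with an edgeR adjusted p of 1.71e-05 but was at 0.01 after the correction, and KIAA2013 did not pass. DIPK2A and PLSCR4, beside PLOD2, passed in neither comparison. After the length and GC correction CLDN1 no longer passed in KO, at 0.24, while EIPR1, CDCA3 and KIAA2013 passed in KO, at 0.36, 0.47 and 0.26.

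**Figure D5:**
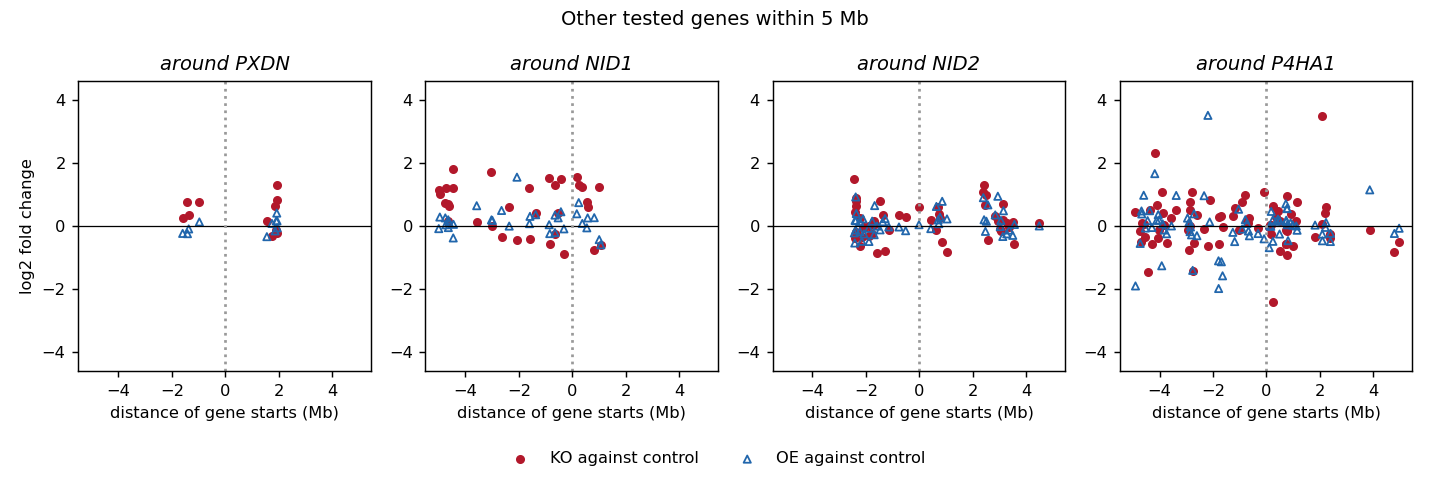
Log2 fold change in KO against control (filled circles) and OE against control (open triangles) of the other tested genes whose starts lie within 5 Mb of PXDN, NID1, NID2 and P4HA1, plotted by distance in Mb. Around NID1 most KO values lie above 0, with a median of 0.69, and around PXDN the lowest values are −0.31 in KO and −0.33 in OE.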

How the data were processed

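Poly-A RNA was sequenced as paired reads of 150 bases, per the labels' protocols. The deposited values were raw read counts per gene from featureCounts 1.5.2 run by the authors against Ensembl release 101 on GRCh38, per the file headers. HISAT2 1.03, DESeq2, FastQC and another version of featureCounts (0.1.0) are listed in the submitters' processing notes. The command sets no option for read pairs or strand, and genes with 2 reads outnumbered genes with 1 in every library, so mates may be counted separately and reads are not independent molecules.

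From these counts, genes were kept by filterByExpr (minimum count 10, 13390 genes), scaled by TMM and fitted with edgeR 4.0.16, with all 9 libraries and the group as the term (common biological coefficient of variation 10.2%). The quasi-likelihood test was two-sided with Benjamini-Hochberg adjustment over all tested genes, and an adjusted p under 0.05 was called. The correction entered a loess trend (span 0.3) of log2 CPM over exon length and GC content as an offset. GC content came from GENCODE release 29 for 99.6% of tested genes. Ratios of few reads have 95% exact intervals. These intervals and the floors (3 reads) treat reads as independent and cover no more than counting error. If mates were counted separately, the intervals are too narrow and the bounds from the floor too high. Replicates differed by more than sampling noise (chi-square per degree of freedom 2.72 to 10.8). The number of independent cultures is not given, so p values measure the spread between these libraries.

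The 10 genes, the 7 partner lists and the alternatives were chosen with earlier results of these data known. Named partner genes were up to 4 per list with the smallest p among those called in KO or OE against control. For PXDN and NID2 the 5 best-correlated genes (log2 CPM, prior count 2) were named, and for each of the 10 the nearest tested gene on each side. The test was checked on simulated counts. Alternatives were other scalings, filters, tests and sample sets, a replicate block, the length and GC correction, and each library left out (DESeq2 1.42.0 and limma 3.58.1, both under R 4.3.3).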

Additional observations from a re-analysis of the deposited data

How the results depend on the processing

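Across the alternatives, the number of genes called stayed within 1.5 times that of the reported fit in all 3 comparisons. It was 6951 in KO against control, between 6056 and 7201 with a library left out, 2493 in OE against control, between 1729 and 2585, and 7711 in KO against OE, between 6893 and 7673. With the length and GC correction 6103, 2815 and 7195 genes were called, and 4912 of those in KO against control were also called without it. DESeq2's Wald test called 6840, 2466 and 7588, and limma-voom 6839, 2642 and 7714. The number of partner genes called was 39 in KO against control, between 35 and 40 with a library left out, and 36 in KO against OE, between 32 and 37. LOXL1 is among the 39 and the 36. In OE against control the number was 19, between 12 and 20, and 12 was the value without control library 3. Lowering the control minimum to 50 reads gave 2 genes with reads in control and at most 3 in each edited group, in place of 1.

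Samples with the same replicate number did not deviate together: the correlations of their deviations from the group means lay between −0.08 and 0.07. With the number as a replicate block 6907, 2468 and 7669 genes were called, and with the replicate block and the correction 6150, 2853 and 7209. The block ended 1 call of a named partner gene, FKBP14 in OE against control.

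Of the 10 genes, 7 had enough reads for a fitted fold change in KO. With these 7 in all 3 comparisons, and NID2 and P3H3 in OE against control, there were 23 fitted values. The correction moved 10 of the 23 by more than 1 SD of the replicates. It turned the sign of P3H1, P4HA2 and PLOD1 in KO against control. It also turned AGRN, from −0.67 to 0.27. NID1, P3H2, P4HA1 and PLOD2 kept their sign in KO against control in all 18 alternatives run. Why the correction moves these values was not tested. The depth allows nothing below 0.225 to 0.475 CPM to be told from 0 in a library.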
